A study of Homo sapiens with 9 samples.

Results

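The enzymes that supply the precursors of DNA are represented by 9 genes, which were chosen by symbol from the 61487 genes of an RNA-Seq count table of the high-grade serous ovarian cancer (HGSOC) cell line OVCAR4, through their Ensembl identifiers. The 9 genes are RRM1, RRM2, RRM2B, TYMS, TK1, DUT, DCK, CAD and UMPS. Each was found once, and each passed the filter on low counts. The table holds 9 libraries in 3 groups of 3. All 3 groups were wild-type OVCAR4 cells. Naive cells had not been made resistant and received the vehicle DMSO. Pt-resistant cells, an isogenic derivative obtained through continuous exposure to cisplatin, received DMSO as well, and whether cisplatin was present in those days was not stated. PRMT5i-treated cells were the same Pt-resistant cells kept for 5 days in 5 µM EPZ015666, an inhibitor of the arginine methyltransferase PRMT5. No naive cells with inhibitor were included. The replicates were wells seeded in triplicate from 1 line per state, so p-values here reflect variation among wells and may be only technical.

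Deoxynucleotides for DNA synthesis are made by reduction of ribonucleotides or recovered by salvage of nucleosides. Ribonucleotide reductase catalyses the reduction. It joins the large subunit RRM1, which holds the catalytic site, with a small subunit, either RRM2, which cells accumulate around S phase, or RRM2B, which p53 can induce and which also serves cells outside S phase. CAD and UMPS carry out the first and last steps of pyrimidine synthesis. DUT breaks down dUTP to dUMP and so keeps uracil out of DNA, and TYMS, the target of fluorouracil, methylates dUMP to the thymidine nucleotide. TK1 and DCK phosphorylate salvaged thymidine and deoxycytidine, and DCK also activates nucleoside drugs such as gemcitabine.

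The promoters of the genes that rose most under PRMT5i (RRM1, TYMS, TK1 and DCK) and of RRM2, the partner of RRM1, are shown, since 4 of these genes moved together and the fifth did not. Each is the 250 bases before a RefSeq transcript start on GRCh38.p14, written 5′ to 3′ on the strand of the gene. Where RefSeq lists several starts (RRM2 and TK1), the most downstream one is given. Capitals mark matches, on either strand, to 4 motifs: CCAAT, bound by NF-Y, the E2F site (TTTGGCGC, TTTGCCGC, TTTCGCGC or TTTCCCGC), the cell cycle element TTTGAA and the E-box CACGTG.
RRM1 promoter, chr11:4094435-4094684, plus strand: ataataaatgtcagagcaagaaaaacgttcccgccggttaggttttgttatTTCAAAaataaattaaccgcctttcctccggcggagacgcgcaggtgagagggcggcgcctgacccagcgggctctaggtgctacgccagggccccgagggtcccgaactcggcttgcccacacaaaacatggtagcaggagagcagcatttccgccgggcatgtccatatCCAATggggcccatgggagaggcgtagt
TYMS promoter, chr18:657403-657652, plus strand: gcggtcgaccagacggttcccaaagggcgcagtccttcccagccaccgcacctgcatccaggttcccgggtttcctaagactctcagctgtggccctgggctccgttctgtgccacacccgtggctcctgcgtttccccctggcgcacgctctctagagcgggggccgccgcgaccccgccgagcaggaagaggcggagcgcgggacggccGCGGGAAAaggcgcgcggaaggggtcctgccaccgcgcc
TK1 promoter, chr17:78187053-78187302, minus strand: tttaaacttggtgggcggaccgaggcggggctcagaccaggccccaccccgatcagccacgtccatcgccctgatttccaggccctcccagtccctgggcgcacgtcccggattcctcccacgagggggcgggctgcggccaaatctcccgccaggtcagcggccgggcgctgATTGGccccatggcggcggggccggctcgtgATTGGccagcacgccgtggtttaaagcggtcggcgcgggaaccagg
DCK promoter, chr4:70993399-70993648, plus strand: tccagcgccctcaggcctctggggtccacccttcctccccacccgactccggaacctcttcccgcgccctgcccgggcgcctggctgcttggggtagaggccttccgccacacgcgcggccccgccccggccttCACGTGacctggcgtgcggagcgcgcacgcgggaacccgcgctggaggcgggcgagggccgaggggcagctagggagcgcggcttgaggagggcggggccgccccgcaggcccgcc
RRM2 promoter, chr2:10122489-10122738, plus strand: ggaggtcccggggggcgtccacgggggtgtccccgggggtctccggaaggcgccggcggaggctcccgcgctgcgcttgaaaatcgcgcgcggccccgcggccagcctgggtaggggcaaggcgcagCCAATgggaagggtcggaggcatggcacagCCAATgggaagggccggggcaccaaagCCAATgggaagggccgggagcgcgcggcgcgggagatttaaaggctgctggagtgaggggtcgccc

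The search covered 13 windows of 8 of the 9 genes, and RRM2B, on chromosome 8, was left out of it. The RRM1 window had 1 CCAAT box, 28 bases before the start, and 1 TTTGAA match. The RRM2 window had 3 CCAAT boxes, at 123, 93 and 66 bases before the start, and that of TK1 had 2, at 77 and 46 bases. TYMS had 1 E2F match 39 bases before its start, and DCK had 1 CACGTG match 116 bases before its start. Thus none of the 4 motifs, matched letter by letter, was present in all of RRM1, TYMS, TK1 and DCK in these windows. Variants with other letters and sites outside the windows were not searched, so shared elements may have been missed. Among the 4 listed DUT windows, 1 (chr15:48331947-48332196) held 2 E2F matches, 42 and 27 bases before the start, and 2 TTTGAA matches. CCAAT occurred in 32% of all 35116 promoter windows of this length, TTTGAA in 13.3%, CACGTG in 6.34% and the E2F site in 2.79%.

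Total counts ran from 14320929 to 19114811 per library, and the variation between wells, as edgeR's biological coefficient of variation, was 7.66%. Values are given as CPM, counts scaled to a common library total, after TMM scaling, and calls are from edgeR's quasi-likelihood test with Benjamini-Hochberg adjustment over all 14630 genes that passed the filter, at an adjusted p below 0.05. The cells carried epithelial transcripts in every group: 10 epithelial and serous ovarian markers summed to 4166 to 4455 CPM in naive, 4012 to 4135 CPM in Pt-resistant and 3277 to 3342 CPM in PRMT5i-treated libraries, although WT1 was too low to be tested. KRT7 alone had means of 1929, 2333 and 1638 CPM in these groups. Of the 9 tested markers, 1 was higher and 5 lower in Pt-resistant than in naive cells, beside 29.8% and 29.4% of all genes tested. In PRMT5i-treated against naive cells 0 were higher and 7 lower, beside 32.2% and 31.2%. The 11 fibroblast and endothelial markers summed to 145 to 163, 128 to 135 and 96.1 to 112 CPM in naive, Pt-resistant and PRMT5i-treated libraries. Most of this came from the endothelial genes PECAM1 (means of 95.4, 57.4 and 43.7 CPM) and CDH5 (48.4, 67.9 and 46.7 CPM). Of the 11, 2 were at 0 in all naive libraries. In the same order, 8 immune markers summed to 1.58 to 2.20, 0.661 to 0.779 and 5.36 to 6.81 CPM. Mitochondrial mRNAs made up 5.97% to 7.82% of counts in naive, 4.45% to 5.19% in Pt-resistant and 6.26% to 8.31% in PRMT5i-treated libraries. They were thus lowest in Pt-resistant libraries, as were RRM1, TYMS, TK1 and DCK. Unlike for these genes, the naive and PRMT5i-treated libraries overlapped. The part of mitochondrial mRNAs in these results was not tested.

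Relative to naive cells, Pt-resistant cells had 6 of the 9 enzyme genes lower (RRM1, RRM2, TYMS, TK1, DCK and CAD) and RRM2B higher, and DUT and UMPS did not pass the test. Changes were moderate: none reached 2-fold, which 6.73% of all genes did as higher and 9.13% as lower, and the median log2 fold change of the 9 genes was -0.48 beside 0.01 over all genes tested. Of all genes tested, 59.1% were called in this comparison, 29.4% lower and 29.8% higher. The groups did not overlap for 7 of the 9 genes, against 62.5% of all genes. After PRMT5i, Pt-resistant cells had higher RRM1, TYMS, TK1, DUT and DCK, lower CAD, and no call for RRM2, RRM2B and UMPS. Here the median of the 9 genes was 0.33 beside 0.01 over all genes tested. The 6 calls compare with 62.4% of all genes, the 5 higher with 31.9% and the 1 lower with 30.5%. RRM1, TYMS, TK1 and DCK rose at least 2-fold, as did 11.4% of all genes, and none fell so far, as did 6.51%. For 5 of the 9 genes the groups did not overlap, against 66.5% of all genes. This and the first comparison share the Pt-resistant libraries, so a low or high draw of those wells would move the 2 in opposite directions.

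**Figure D1:**
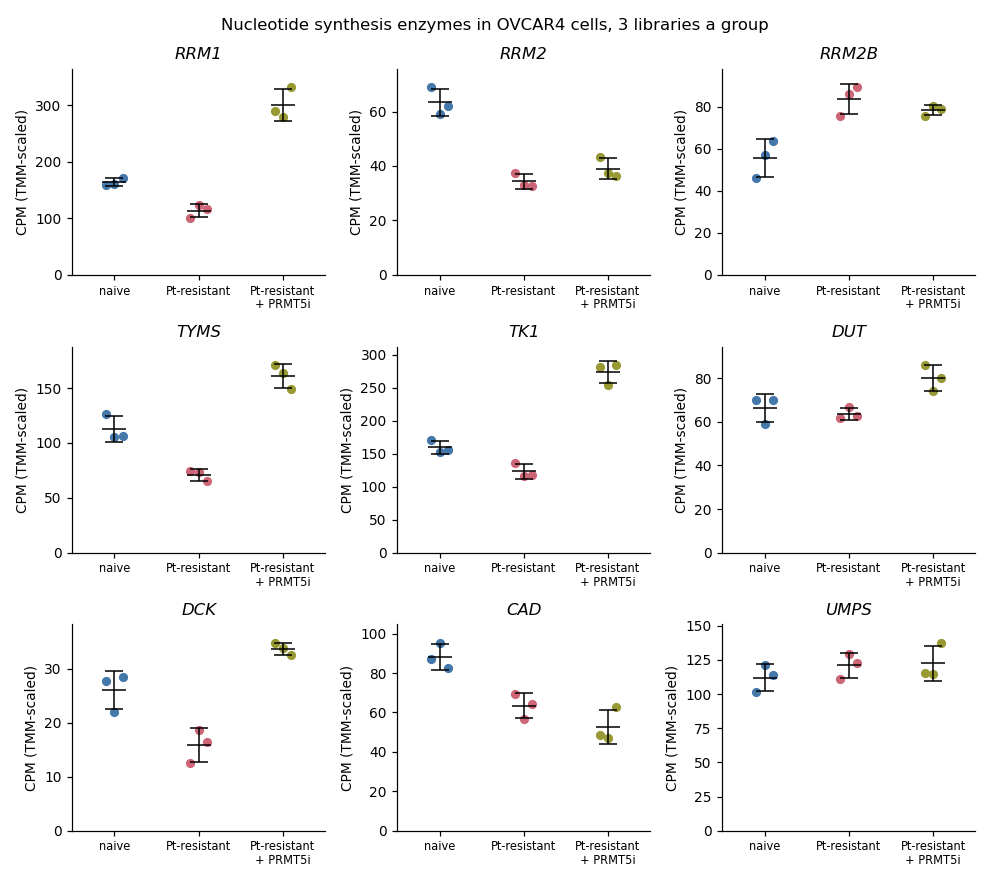
TMM-scaled CPM (y axis, from 0) of each of the 9 enzyme genes in the 3 naive, 3 Pt-resistant and 3 PRMT5i-treated libraries (x axis, points), with the mean and SD of each group as bars. RRM1, TYMS, TK1 and DCK were lowest in Pt-resistant and highest in PRMT5i-treated libraries, whereas RRM2 stayed between 32.7 and 43.3 CPM in both Pt-resistant groups.

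Of the ribonucleotide reductase subunits, RRM1 (ENSG00000167325.15) had 159, 161 and 172 CPM in naive replicates 1 to 3, 101, 123 and 116 CPM in the Pt-resistant ones, and 289, 278 and 332 CPM in the PRMT5i-treated ones. All 3 groups were apart from each other. RRM1 was 1.44-fold lower in Pt-resistant than in naive cells (log2 fold change -0.53 ± 0.09 (SE), adjusted p = 1.25e-05). PRMT5i raised it 2.64-fold over Pt-resistant cells (1.40 ± 0.09, adjusted p = 2.25e-12), which was the largest fold change of the 9 genes in any of the 3 comparisons, and left it 1.83-fold above naive cells (0.87 ± 0.09, adjusted p = 4.81e-09).

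RRM2 (ENSG00000171848.16), the S phase small subunit, had 68.9, 59.2 and 62.2 CPM in naive libraries and 37.5, 33.0 and 32.7 CPM in Pt-resistant libraries. With PRMT5i it had 43.3, 37.5 and 36.2 CPM. The PRMT5i-treated and Pt-resistant libraries overlapped, and both lay below every naive library. RRM2 was 1.85-fold lower in Pt-resistant than in naive cells (-0.89 ± 0.09, adjusted p = 1.61e-08), the largest change of the 9 genes in that comparison. Under PRMT5i the difference was 0.18 ± 0.09 (95% interval -0.00067 to 0.37, adjusted p = 0.0934), and it passed the test when Pt-resistant replicate 1 was left out (0.25, adjusted p = 0.0337, range over the alternatives 0.0337 to 0.408). PRMT5i-treated cells remained 1.63-fold below naive cells (-0.70 ± 0.09, adjusted p = 4.54e-07). Reads of 3 annotated RRM2 pseudogenes were few, at most 0.17 CPM in any library, but reads that match several places were not counted, so the level of RRM2 is uncertain while its comparison between groups rests on the same counting in all libraries.

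RRM2B (ENSG00000048392.13), the p53-inducible small subunit, moved the other way. It had 45.9, 57.1 and 63.8 CPM in naive libraries, 75.7, 86.0 and 89.3 in Pt-resistant libraries and 75.8, 80.2 and 79.1 in PRMT5i-treated libraries. The naive libraries were below the other 6, which overlapped with each other. RRM2B was 1.51-fold higher in Pt-resistant than in naive cells (0.59 ± 0.10, adjusted p = 1.42e-05). The difference between PRMT5i-treated and Pt-resistant cells was -0.10 ± 0.10 (95% interval -0.28 to 0.09, adjusted p = 0.397), and that between PRMT5i-treated and naive cells was 0.50 ± 0.10 (adjusted p = 0.00011).

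Among 14 listed p53 targets, which did not include RRM2B, 6 were higher and 3 lower in Pt-resistant than in naive cells, with a median of 0.18, beside 29.8% higher and 29.4% lower of all genes tested. CDKN1A, the p21 cell cycle inhibitor, rose (0.80 ± 0.09, adjusted p = 3.64e-08), as did the death receptor TNFRSF10B (1.09 ± 0.08, adjusted p = 1.25e-10), and for MDM2, which degrades p53, the difference was -0.14 ± 0.09 (adjusted p = 0.202). The 3 lower targets were FDXR (-0.45 ± 0.14), BAX (-0.30 ± 0.09) and DDB2 (-0.43 ± 0.16), with adjusted p of 0.00737, 0.00448 and 0.0217. Under PRMT5i, 6 of the 14 were higher and 3 lower, with a median of 0.04, beside 31.9% and 30.5% of all genes tested, and RRM2B was not called. The part of p53 targets in the level of RRM2B was not tested.

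Since the subunits work as a complex, their counts were also compared within each library, where scaling cancels out. The counts were not divided by gene length, so these are not ratios of molecules. RRM2 counts were 0.386 of those of RRM1 in naive cells (geometric mean, n = 3), 0.303 in Pt-resistant cells and 0.130 in PRMT5i-treated cells. Naive and Pt-resistant libraries overlapped, with a log2 difference of -0.35 for Pt-resistant against naive cells (2-sided exact permutation p = 0.3). The 3 PRMT5i-treated libraries, at 0.150, 0.135 and 0.109, lay below the other 6. The log2 ratio was lower by -1.22 in PRMT5i-treated than in Pt-resistant cells (2-sided exact permutation p = 0.1, the smallest that 3 against 3 allows). RRM2B counts were 0.336 of those of RRM1 in naive, 0.738 in Pt-resistant and 0.262 in PRMT5i-treated cells. Pt-resistant libraries, at 0.749, 0.697 and 0.770, were above all others. The difference in log2 was 1.14 for Pt-resistant against naive and -1.49 for PRMT5i-treated against Pt-resistant (exact permutation p = 0.1 each). Between the small subunits, RRM2 against RRM2B, the ratio went from 1.15 in naive to 0.411 in Pt-resistant cells, a log2 difference of -1.48 (exact permutation p = 0.1), and was 0.496 with PRMT5i (0.27 above Pt-resistant cells, exact permutation p = 0.3). With 9 such tests the smallest adjusted p was 0.15, so none could pass a threshold of 0.05 in this design.

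**Figure D2:**
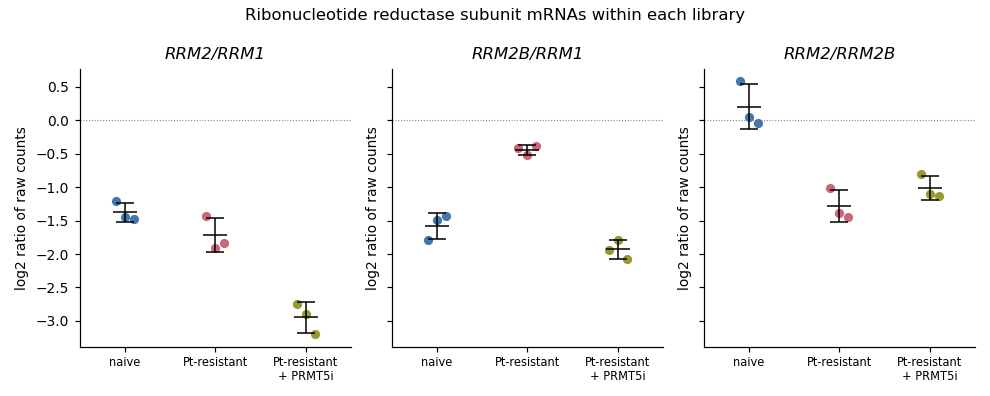
Log2 ratio of raw counts (y axis) of RRM2 to RRM1, RRM2B to RRM1 and RRM2 to RRM2B in each of the 9 libraries (points), by group (x axis), with mean and SD as bars and a dotted line at equal counts. RRM2 relative to RRM1 was lowest in the PRMT5i-treated libraries, and RRM2B relative to RRM1 was highest in the Pt-resistant libraries.

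TYMS (ENSG00000176890.16), thymidylate synthase, had 126, 105 and 107 CPM in naive libraries, 74.9, 73.2 and 65.0 CPM in Pt-resistant libraries and 171, 163 and 149 CPM in PRMT5i-treated libraries. As with RRM1, the 3 groups did not overlap. It was 1.59-fold lower in Pt-resistant than in naive cells (-0.67 ± 0.09, adjusted p = 6.05e-07), 2.27-fold higher with PRMT5i than without (1.18 ± 0.09, adjusted p = 4.95e-11), and 1.43-fold higher with PRMT5i than in naive cells (0.52 ± 0.09, adjusted p = 1.42e-05).

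ENOSF1, a mitochondrial enzyme gene on the opposite strand, shares 967 of the 2470 exon bases of TYMS in GENCODE 29, and was singled out after its values were seen. It changed in the opposite direction to TYMS in every comparison, with 29.4 ± 1.32 CPM (SD, n = 3) in naive cells, 53.6 ± 2.10 in Pt-resistant cells and 18.5 ± 1.48 with PRMT5i. Its log2 fold changes were 0.87 ± 0.09 in Pt-resistant against naive cells (adjusted p = 8.61e-09) and -1.54 ± 0.09 under PRMT5i (adjusted p = 8.93e-13). The library kit keeps the strand, but which strand setting the counting used was not stated, and reads in the shared exons may be assigned to either gene or to none, so the levels of both are uncertain.

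TK1 (ENSG00000167900.12), the cytosolic thymidine kinase, had 171, 153 and 155 CPM in naive libraries. Pt-resistant libraries had 137, 116 and 117 CPM and PRMT5i-treated libraries 281, 254 and 284 CPM, again with no overlap among the 3 groups. Its decrease in Pt-resistant cells was 1.30-fold (-0.38 ± 0.08, adjusted p = 0.000397). PRMT5i raised it 2.22-fold (1.15 ± 0.08, adjusted p = 3.25e-11), to 1.71-fold the naive level (0.77 ± 0.08, adjusted p = 1.76e-08).

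DUT (ENSG00000128951.14), the dUTPase, changed less. Naive libraries had 70.0, 59.0 and 70.1 CPM, Pt-resistant libraries 61.6, 66.5 and 62.5 CPM and PRMT5i-treated libraries 85.9, 74.2 and 80.1 CPM. The first 2 groups overlapped (-0.06 ± 0.09, 95% interval -0.23 to 0.10, adjusted p = 0.542), and every PRMT5i-treated library was above them. DUT rose 1.26-fold under PRMT5i (0.33 ± 0.08, adjusted p = 0.00155). Against naive cells the increase was 1.21-fold (0.27 ± 0.09, adjusted p = 0.00805), and this call was lost without naive replicate 2 (0.19, adjusted p = 0.0666) or without PRMT5i-treated replicate 1 (0.22, adjusted p = 0.0516).

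DCK (ENSG00000156136.10), deoxycytidine kinase, was the gene with the fewest counts of the 9. It had 27.8, 22.1 and 28.4 CPM in naive libraries, 12.5, 18.7 and 16.5 in Pt-resistant libraries and 34.8, 33.9 and 32.5 in PRMT5i-treated libraries, and the groups were apart. DCK also had the widest spread between wells, a coefficient of variation of 19.9% in the Pt-resistant group, beside a median of 8.52% over the 9 genes and 3 groups. It was 1.64-fold lower in Pt-resistant than in naive cells (-0.71 ± 0.12, adjusted p = 2.57e-05) and rose 2.11-fold with PRMT5i (1.08 ± 0.12, adjusted p = 4.68e-08). The increase over naive cells was 1.29-fold (0.37 ± 0.12, adjusted p = 0.00841) and did not pass without naive replicate 2 (0.26, adjusted p = 0.0526).

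For pyrimidine synthesis itself, CAD (ENSG00000084774.14) fell and UMPS did not pass any test. CAD had 87.1, 95.1 and 82.3 CPM in naive libraries, 69.2, 56.9 and 64.2 CPM in Pt-resistant libraries and 48.4, 47.2 and 62.7 CPM in PRMT5i-treated libraries. Naive libraries were above all others, and the last 2 groups overlapped through PRMT5i-treated replicate 3. CAD was 1.39-fold lower in Pt-resistant than in naive cells (-0.48 ± 0.10, adjusted p = 0.000242) and 1.67-fold lower with PRMT5i than in naive cells (-0.74 ± 0.10, adjusted p = 8.52e-07). The decrease under PRMT5i, 1.20-fold (-0.26 ± 0.10, adjusted p = 0.0262), was lost when any of 4 libraries was left out: Pt-resistant replicate 1 (-0.19, adjusted p = 0.12) or 3 (-0.26, adjusted p = 0.0644), or PRMT5i-treated replicate 1 (-0.20, adjusted p = 0.132) or 2 (-0.19, adjusted p = 0.143).

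UMPS (ENSG00000114491.14) had 101, 121 and 114 CPM in naive libraries, 111, 129 and 123 in Pt-resistant libraries and 116, 115 and 137 in PRMT5i-treated libraries. All groups overlapped. The 95% intervals of its log2 fold changes ran from -0.06 to 0.29 for Pt-resistant against naive cells (adjusted p = 0.283), from -0.15 to 0.19 for PRMT5i-treated against Pt-resistant cells (adjusted p = 0.876) and from -0.04 to 0.30 for PRMT5i-treated against naive cells (adjusted p = 0.205).

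**Figure D3:**
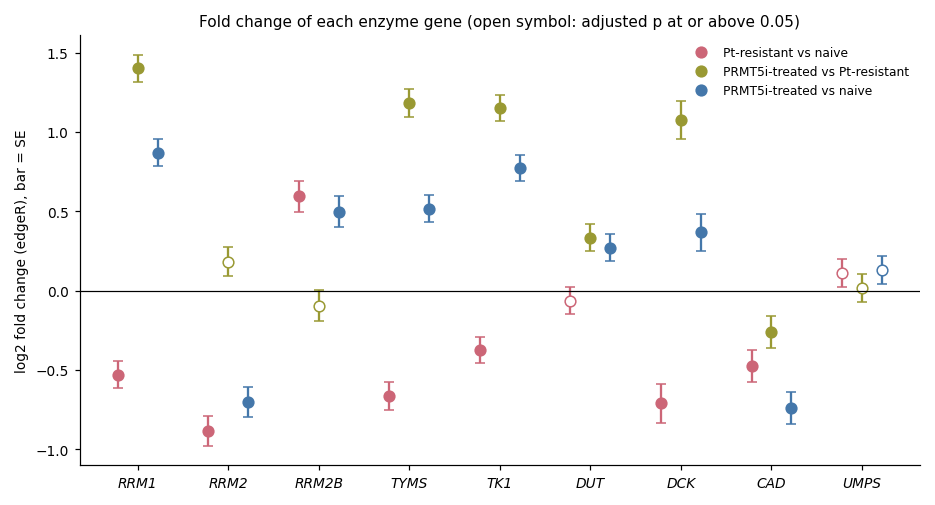
Log2 fold change (y axis) of each enzyme gene (x axis) in the 3 comparisons, with SE as bars. Filled symbols passed an adjusted p of 0.05. RRM2 was negative against naive cells in both Pt-resistant groups and RRM2B positive in both, while RRM1, TYMS, TK1 and DCK were negative in Pt-resistant and positive in PRMT5i-treated cells against naive cells.

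Against naive cells, PRMT5i-treated Pt-resistant cells had 6 enzyme genes higher (RRM1, RRM2B, TYMS, TK1, DUT and DCK) and 2 lower (RRM2 and CAD). Of all genes tested, 32.2% were higher and 31.2% lower in this comparison. Without PRMT5i-treated replicate 1 or naive replicate 2 fewer of the 9 passed as higher, down to 4 of them. Groups did not overlap for 8 of the 9 genes, against 66.4% of all genes, and none reached 2-fold, which 10.7% of all genes did as higher and 9.15% as lower. The 9 genes together summed to 832 to 858 CPM in naive, 680 to 703 CPM in Pt-resistant and 1084 to 1192 CPM in PRMT5i-treated libraries.

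Per length of transcript (TPM, counts divided by length over the union of exons in GENCODE 29), TK1 was the most abundant of the 9 mRNAs in each group, at 280 ± 27.6 TPM in naive, 217 ± 22.4 TPM in Pt-resistant and 439 ± 32.1 TPM in PRMT5i-treated cells (SD, n = 3). TYMS and RRM1 followed in every group. In naive cells they had 149 ± 21.5 and 127 ± 2.38 TPM, in Pt-resistant cells 94.4 ± 6.61 and 89.1 ± 8.01 TPM, and in PRMT5i-treated cells 195 ± 8.96 and 215 ± 25.1 TPM. Every naive library had more TYMS than any had RRM1, whereas in the other 2 groups the libraries of this pair overlapped. DUT was the fourth at 58.7 ± 6.26, 56.8 ± 1.49 and 65.1 ± 4.71 TPM. In naive cells UMPS (48.0 ± 3.41 TPM), RRM2 (38.8 ± 4.41 TPM), CAD (34.1 ± 3.22 TPM), RRM2B (32.4 ± 3.97 TPM) and DCK (26.3 ± 3.63 TPM) came next. RRM2 and RRM2B did not overlap between naive libraries, and CAD overlapped with both.

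In Pt-resistant cells the lower part of the order had changed. UMPS (52.4 ± 3.33 TPM) and RRM2B (49.5 ± 4.14 TPM) stood above CAD (24.7 ± 2.76 TPM), RRM2 (21.2 ± 1.84 TPM) and DCK (16.2 ± 3.03 TPM). With PRMT5i, UMPS (48.4 ± 6.19 TPM) and RRM2B (42.2 ± 1.88 TPM) were followed by DCK (31.2 ± 0.379 TPM), RRM2 (21.9 ± 1.76 TPM) and CAD (18.8 ± 3.52 TPM). Lengths were taken from GENCODE 29, whose versions of these 9 genes differ from those in the count table. Levels, and the order of close ones, are therefore approximate.

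By their pattern over the 9 libraries, RRM1, TYMS, TK1 and DCK had Pearson's r from 0.83 (TK1 and DCK) to 0.96 (RRM1 and TK1) with each other on log2 CPM, and DUT had 0.80 to 0.85 with these 4. RRM1 and RRM2 had r of 0.03, and RRM2 and RRM2B of -0.95. The 9 libraries fall into 3 groups, so these values describe the group means for the most part. Among 9370 genes with a mean of at least 10 CPM over the 9 libraries, the closest pattern, as root mean square difference of centred log2 CPM, was that of CACNB3 for RRM1 (0.08), GLTP for RRM2 (0.06), SEC62 for RRM2B (0.07), SERINC2 for TYMS (0.07), DDX23 for TK1 (0.06), LYRM4 for DUT (0.04), SPC24 for DCK (0.10), HTT for CAD (0.07) and MIER3 for UMPS (0.06).

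The other genes of nucleotide supply, 63 in 6 lists of which 61 were tested, did not move in 1 direction as a whole. In Pt-resistant against naive cells 18 were higher and 25 lower (median -0.14), and under PRMT5i 25 were higher and 19 lower (median 0.09). Over all genes tested the shares were 29.8% higher and 29.4% lower, then 31.9% and 30.5%, and the counts of each list below stand against these. Other enzymes of deoxynucleotide supply had 1 of 9 higher and 5 lower in Pt-resistant cells, then 6 higher and 1 lower under PRMT5i. Among them DCTPP1, which removes excess dCTP, changed by -0.72 ± 0.08 and then 0.54 ± 0.08 (adjusted p = 1.02e-07 and 7.18e-06). NUDT1, which clears oxidised nucleotides, rose most under PRMT5i (1.12 ± 0.13, adjusted p = 6.96e-08). DTYMK, which phosphorylates the product of TYMS and TK1, rose in both steps, from 37.3 ± 5.70 CPM in naive to 57.9 ± 5.17 CPM in Pt-resistant and 84.2 ± 4.27 CPM in PRMT5i-treated cells (0.63 ± 0.10, adjusted p = 6.86e-06, then 0.54 ± 0.09, adjusted p = 2.98e-05). The mitochondrial kinases DGUOK and TK2 changed by 0.70 ± 0.09 and -0.54 ± 0.11 under PRMT5i (adjusted p = 5.12e-07 and 0.000107).

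Of the other 11 genes of pyrimidine synthesis, 3 were higher and 4 lower in Pt-resistant cells, and 3 higher and 3 lower under PRMT5i. CTPS2, which makes CTP, had a log2 fold change of -0.88 ± 0.08 in the first comparison (adjusted p = 3.77e-09) and PRPS2, which makes the ribose phosphate donor, rose by 0.92 ± 0.08 under PRMT5i (adjusted p = 1.78e-09). Purine synthesis had 2 of 11 genes higher and 4 lower, then 3 higher and 5 lower. Its IMPDH1, which commits IMP to guanine nucleotides, changed by -0.71 ± 0.09 and then 0.72 ± 0.09, and IMPDH2 fell by 0.64 ± 0.09 under PRMT5i. Purine salvage had 3 of 9 higher and 5 lower, then 4 higher and 2 lower, with HPRT1 at 0.76 ± 0.09 and APRT at -0.63 ± 0.08 under PRMT5i. One-carbon supply had 2 of 8 higher and 2 lower, then 1 higher and 5 lower. In that list FPGS, which retains folates in the cell, fell by 1.16 ± 0.08 under PRMT5i (adjusted p = 9.49e-12).

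The largest changes were in nucleoside transport and breakdown, with 7 of 13 tested genes higher and 5 lower in Pt-resistant cells, then 8 higher and 3 lower under PRMT5i. DPYD, the first enzyme of pyrimidine breakdown and the one that inactivates fluorouracil, rose from 1.18 ± 0.31 CPM in naive to 41.8 ± 2.27 CPM in Pt-resistant and 55.7 ± 3.83 CPM in PRMT5i-treated cells (5.13 ± 0.15, adjusted p = 1.68e-18, then 0.41 ± 0.09, adjusted p = 0.000316). UPP1, which splits uridine, rose from 152 ± 12.4 to 666 ± 90.2 CPM and was 207 ± 8.97 CPM with PRMT5i (2.13 ± 0.09 and -1.69 ± 0.09, adjusted p = 5.01e-15 and 2.59e-13). CDA, which deaminates cytidine and inactivates gemcitabine, had 19.1 ± 2.24, 9.17 ± 0.61 and 42.0 ± 2.28 CPM, lower in Pt-resistant cells (-1.06 ± 0.11, adjusted p = 1.8e-08) and higher under PRMT5i (2.20 ± 0.11, adjusted p = 4.06e-14). The nucleoside transporter SLC29A2 fell in both steps, from 74.3 ± 1.63 to 29.3 ± 3.65 and 19.2 ± 1.28 CPM (-1.35 ± 0.09 and -0.61 ± 0.10, adjusted p = 1.31e-11 and 1.15e-05).

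**Figure D4:**
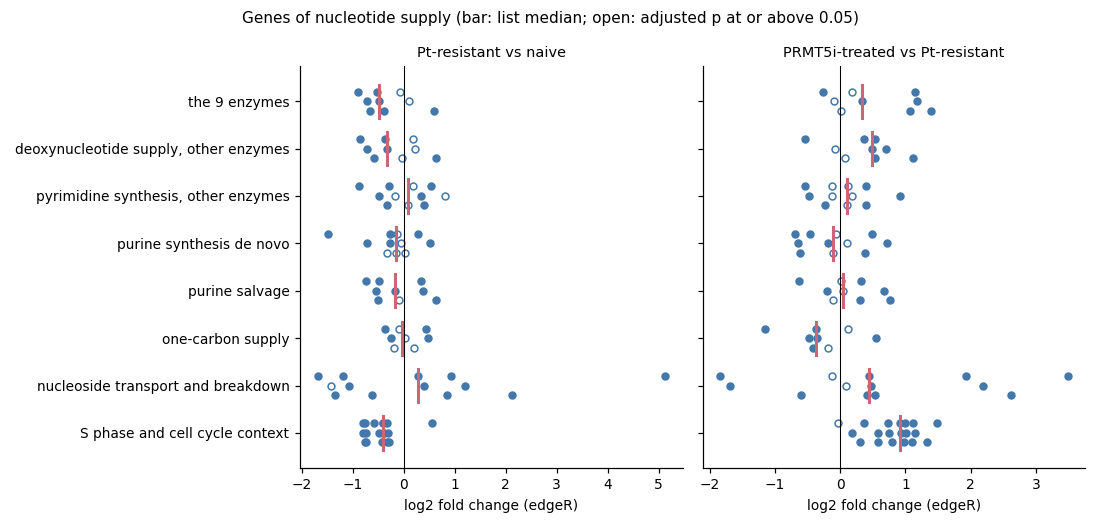
Log2 fold change (x axis) of the 9 enzymes, of the other genes of nucleotide supply and of S phase and cell cycle genes (rows), for Pt-resistant against naive cells (left) and PRMT5i-treated against Pt-resistant cells (right). Each point is 1 gene, filled where it passed an adjusted p of 0.05, and the bar is the median of its list. The cell cycle list was at a median of -0.41 and then 0.92, and DPYD is the point at 5.13.

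Cell cycle genes moved with RRM1, TYMS, TK1 and DCK, while none of the other 5 enzymes passed the test both as lower in Pt-resistant cells and as higher under PRMT5i. Of 19 tested genes of S phase and the cell cycle, 18 were lower and 1 (CDC6) higher in Pt-resistant than in naive cells, and 18 were higher and none lower under PRMT5i, with medians of -0.41 and 0.92 (edgeR's quasi-likelihood test, as above). The exception under PRMT5i was CDC6, at -0.03 ± 0.09, and no gene of the list was lower there at an unadjusted p below 0.05 either. CCNA2, the S and G2 phase cyclin, changed by -0.79 ± 0.08 and then 1.33 ± 0.08, E2F1 by -0.75 ± 0.08 and then 1.15 ± 0.08, and CCNE1, cyclin E1, by -0.76 ± 0.08 and then 0.18 ± 0.08. The summed level of the list of 20 was 2655 to 2719 CPM in naive, 1963 to 2008 CPM in Pt-resistant and 3304 to 3519 CPM in PRMT5i-treated libraries. The authors, staining DNA after a shorter EPZ015666 treatment at other doses, reported a slight accumulation of inhibited cells in S phase. In bulk RNA, a different share of cells in S phase and a different amount of mRNA per cell cannot be told apart, and the part of the cell cycle in the values of RRM1, TYMS, TK1 and DCK was not tested. Against naive cells, PRMT5i-treated cells had 14 of these 19 genes higher and 2 lower (median 0.41), beside 32.2% and 31.2% of all genes tested. The 2 lower ones were MCM7 (-0.50 ± 0.08) and CCNE1 (-0.58 ± 0.08), and RRM2 was lower as well.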

How the data were processed

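Total RNA of OVCAR4 wells, 3 per group, was sequenced after strand-preserving library preparation. The deposited table holds raw counts per Ensembl gene, which the authors obtained with STAR in its gene counting mode, a setting that leaves out reads matching several places or several genes. Neither genome build, annotation nor strand column was given in the sources used here. Groups and replicate numbers came from the sample labels. Of 61487 identifiers, 61369 matched a symbol. The 9 enzymes and the other gene lists were chosen with earlier results of these data known.

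Counts were filtered with filterByExpr (minimum count 10), scaled by TMM and fitted in edgeR 4.0.16 (R 4.3.3) with 1 model over the 3 groups. Genes were called at a Benjamini-Hochberg adjusted p below 0.05. CPM use the TMM library sizes, and intervals are 1.96 SE on either side. Ratios of counts were compared with exact permutation tests. Lengths for TPM came from GENCODE 29 and promoters from RefSeq. All 9 enzymes were named, with members of each list taken from the up to 4 largest changes per comparison among those called with groups that did not overlap. Only some of these list genes are given with values, a few of them in 1 comparison only, and the rest enter as counts. CDC6, MDM2, FDXR, BAX, DDB2 and ENOSF1 were named after their values were seen. Alternatives were RLE scaling, library totals alone, DESeq2 1.42.0, limma-voom (limma 3.58.1), other filters, separate fits of the groups compared, a replicate block and leaving out each library. Library depth, 14320929 to 19114811 counts, left between 208 and 5567 reads for each enzyme gene in a library.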

Additional observations from a re-analysis of the deposited data

How the results depend on the processing

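Each of the 27 log2 fold changes of the 9 enzyme genes was recomputed under 17 alternatives. Of 459 values, 447 kept their direction and their side of the threshold, 7 no longer passed, 2 passed where the reported value did not, and 3 changed sign. All 3 were of UMPS under PRMT5i, whose reported value was 0.02 and which passed no test: -0.016 with library totals alone, and -0.070 to 0.065 with a library left out. Leaving out a library gave -0.41 to -0.19 for CAD and 0.10 to 0.25 for RRM2 in PRMT5i-treated against Pt-resistant cells, and 0.19 to 0.32 for DUT and 0.26 to 0.43 for DCK in PRMT5i-treated against naive cells. The libraries behind the lost calls were naive replicate 2 (DUT and DCK), PRMT5i-treated replicate 1 (DUT and CAD), PRMT5i-treated replicate 2 and Pt-resistant replicates 1 and 3 (CAD). Without Pt-resistant replicate 1, RRM2 passed. The number of enzymes called lower under PRMT5i accordingly ran from 0 to 1. A minimum of 2-fold beside the adjusted p left 0 genes higher and 0 lower in Pt-resistant against naive cells, 4 higher and 0 lower under PRMT5i, and 0 and 0 in PRMT5i-treated against naive cells. Apart from the block described next, other scalings, filters, tools and fits changed no call of the 9 genes, and the counts for the other genes of nucleotide supply stayed within 1.5 times in every alternative run.

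With the replicate number as a block, RRM2 under PRMT5i was 0.18 with an adjusted p of 0.049, and the block changed no other call of the 9 genes. The numbers did not pair the samples: deviations of libraries with the same number correlated between -0.0758 and 0.0995 (9 pairs), those with different numbers between -0.112 and 0.0785 (18 pairs). Over all genes the block gave 8688, 9185 and 9319 calls in place of 8651, 9136 and 9276.

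Levels per length moved by more than the spread between wells for 18 of 27 values when the longest coding transcript set the length, TK1 from 280 to 222 TPM in naive cells for instance, while TK1, TYMS, RRM1 and DUT kept the first 4 places in each group. Below them the order changed in part. With that length RRM2 (40.4 ± 4.06 TPM) stood above UMPS (38.8 ± 3.11 TPM) in naive cells. In Pt-resistant cells RRM2 (21.9 ± 2.01 TPM) stood above CAD (20.4 ± 2.38 TPM). Depth limits DCK most, with 208 reads in its lowest library.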
